A study of Homo sapiens with 36 samples.

Results

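A549 cells exposed to 5% cigarette smoke extract for 3 weeks were compared with A549 cells exposed to the same concentration for 1 week. A549 is a human lung adenocarcinoma cell line with features of alveolar type II epithelium, and cigarette smoke extract (CSE) is culture medium through which cigarette smoke has been bubbled. The comparison was made over all genes with a single symbol, 18417 in number, on 6 of the 36 arrays of the series, 3 cultures at 1 week and 3 at 3 weeks. The other arrays held cells without CSE (control) and cells in 1% or 10% CSE at 1 and 3 weeks, and all of these groups at 5 weeks, with 3 arrays a group. All groups were the same line, kept in low-serum medium that was renewed daily and passaged once a week, so the 3-week cells differed from the 1-week cells in time in culture as well as in length of exposure. The controls of the same 2 weeks carried the time without the extract, and the difference between the CSE 5% change and the control change was therefore tested as well. A549 is a single tumour-derived line, so the arrays show how this line varied and not how lungs of different people do.

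Smoke extract holds many compounds that meet known sensors in the cell. Aromatic hydrocarbons bind the aryl hydrocarbon receptor (AhR), which switches on the CYP1 enzymes that oxidise them. Electrophiles free the transcription factor NRF2, which drives antioxidant genes, and damaged proteins or a lack of amino acids raise ATF4, which drives amino acid synthesis, amino acid uptake and tRNA charging. Low sterol releases the SREBP factors, which drive cholesterol and fatty acid synthesis, and the E2F factors and the DREAM and MuvB complexes control the genes of DNA replication and mitosis. All 5 systems are read out by well known target genes, and their members are described by role here.

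The arrays gave log2 intensity values, and a difference of 1 on that scale is a 2-fold change. The medians of the 6 arrays lay between 6.72 and 6.79, arrays of the same week correlated across genes at 0.993 to 0.996, and arrays of different weeks at 0.981 to 0.990. The first principal component held 64.6% of the variance and separated the weeks, with 1-week arrays at -31.1, -36.6 and -27.8 and 3-week arrays at 37.3, 17.7 and 40.4. Replicate 2 of 3 weeks lay nearest to the 1-week arrays, and its values are given beside the genes they touch. The epithelial keratins KRT8 and KRT18 read 13.18 to 13.40 in all 6 arrays and did not differ between weeks (adjusted p = 0.658 and 0.788 by limma). The lung surfactant gene SFTPB read 5.98 to 6.16 and the lung factor NKX2-1 read 5.41 to 5.58, both below the median of every array, so these markers of alveolar type II cells did not stand out in this line. None of 12 fibroblast, 8 endothelial or 11 leukocyte markers passed the test. Their mean level was 5.38 to 5.47 at 1 week and 5.40 to 5.43 at 3 weeks for fibroblast markers, 5.40 to 5.52 and 5.39 to 5.42 for endothelial markers, and 5.71 to 5.76 and 5.63 to 5.67 for leukocyte markers. RNA came from whole cultures, so fewer cells that express a gene and less RNA per cell cannot be told apart.

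Between week 1 and week 3 in CSE 5%, 225 genes were higher and 108 were lower by a log2 change over 1 with B, limma's log odds that a gene changed, above 0. That was 1.22% and 0.586% of the genes tested. By an adjusted p under 0.05 with no fold limit, 1696 genes (9.21%) rose and 1756 (9.53%) fell, and the median change over all genes was -0.04. The genes of cell division led the higher genes, and the genes of amino acid synthesis and small structural RNAs led the lower ones. Of the 225 higher genes, 53 (23.6%) belonged to the lists of replication and mitosis and 13 (5.78%) to the list of cholesterol and fatty acid synthesis. Of the 108 lower genes, 40 (37.0%) were small RNAs, 13 (12%) belonged to the ATF4 list and 12 (11.1%) to the list of serine, one-carbon and amino acid uptake genes, some of them to both. Among the 18417 genes, the lists of replication and mitosis held 46 each and that of cholesterol and fatty acid synthesis 27. The small RNA lists held 192 and 30, the ATF4 list 32 and the serine list 25. The lists were described by their counts and medians, with no test of a list as a whole.

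In the control cells, over the same span, 212 genes were higher (1.15%) and 71 were lower (0.386%). Of the 225 genes higher in CSE 5%, 129 were called in control too, which was 57.3% of the CSE 5% calls and 60.8% of the control calls. Of the 108 lower genes, 35 were shared, 32.4% of the CSE 5% calls and 49.3% of the control calls. A larger share moved the same way in control by adjusted p alone, 155 of 225 (68.9%) and 94 of 108 (87.0%). Only CEMIP, MRAP2 and AGMO, of the 225, passed the test in the opposite direction in control. The difference between both changes, which share no array, passed the fold and B limits in 94 genes (0.51%) where CSE 5% moved up relative to control and in 18 (0.0977%) where it moved down.

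**Figure D1:**
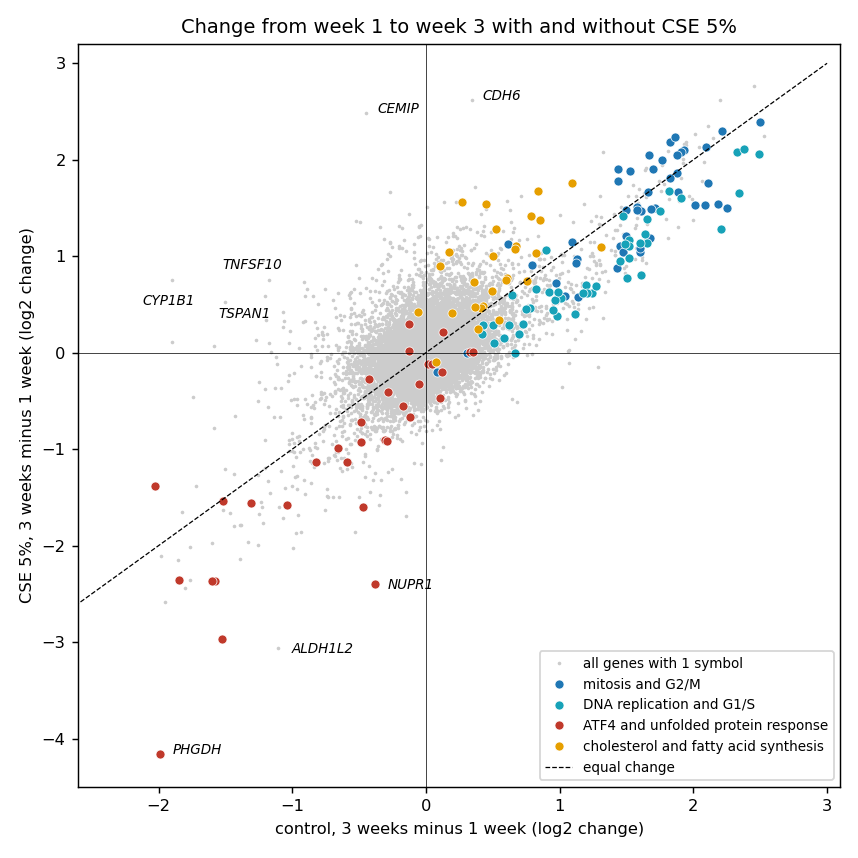
Log2 change from week 1 to week 3 in control (horizontal axis) and in CSE 5% (vertical axis), 1 point a gene, means of 3 arrays against 3. Members of 4 lists are coloured and the dashed line marks equal change. Mitosis genes lie along the line, with medians of 1.63 in control and 1.5 in CSE 5%, whereas PHGDH, ALDH1L2 and NUPR1 lie below it and CEMIP, CDH6 and CYP1B1 above it.

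Genes of cell division rose the most. Of 46 measured genes of mitosis and G2/M, 44 rose and none fell (background 9.21% and 9.53%). The median change was 1.5, against -0.04 over all genes. MKI67, which encodes the proliferation antigen Ki-67 that coats mitotic chromosomes, read 7.46, 6.97 and 7.11 at 1 week and 9.54, 9.42 and 9.75 at 3 weeks. Its change was 2.39 ± 0.12 (SE, n = 3 against 3, adjusted p = 3.03e-14), a 5.24-fold rise, and the arrays of both weeks were far apart. CDK1, the kinase that starts mitosis, read 5.76, 5.13 and 5.48 at 1 week and 7.77, 7.79 and 7.70 at 3 weeks, a change of 2.30 ± 0.23 (adjusted p = 2.14e-08). The largest rise of all genes was that of ESCO2, which acetylates cohesin during replication. It read 6.08, 5.62 and 6.39 and then 8.75, 8.87 and 8.77, a change of 2.77 ± 0.28 (adjusted p = 3.36e-08). Other mitotic genes rose by similar amounts, among them ASPM, a spindle pole protein, by 2.35, ANLN, an organiser of the cleavage furrow, by 2.24, and KIF18A, a motor that aligns chromosomes, by 2.18. PRC1 and KIF23, partners in building the midzone of the spindle, rose by 1.48 ± 0.08 and 1.90 ± 0.17. The 2 members that did not pass were CDC25B, at -0.20, and BUB3, at -0.01.

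Genes of DNA replication and G1/S rose with them. Of 46 measured, 41 rose and none fell (background 9.21% and 9.53%), and the median change was 0.68. DTL, which directs the licensing factor CDT1 to destruction in S phase, read 6.86, 7.19 and 7.31 at 1 week and 9.19, 9.27 and 9.23 at 3 weeks, a change of 2.11 ± 0.12 (adjusted p = 3.85e-13). TYMS, thymidylate synthase, read 8.22, 7.89 and 7.96 and then 9.39, 9.56 and 9.54, a rise of 1.47 ± 0.10 (adjusted p = 4.44e-12). The helicase subunits MCM6, MCM5 and MCM7 rose by 1.11, 0.77 and 0.40, so members of 1 complex differed in size of change. E2F1, the factor that gives the family its name, read 7.84, 7.90 and 8.02 and then 7.98, 8.14 and 7.94, and did not pass (0.10 ± 0.10, adjusted p = 0.553). The 56 replication-dependent histone genes were a list drawn up after the values were seen. Of them 8 rose and 2 fell, against 9.21% and 9.53% of all genes, and without replicate 2 of 3 weeks 3 rose and 4 fell.

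The control cells showed the same rise in mitosis genes and a larger one in replication genes. In control 44 of 46 mitosis genes and 46 of 46 replication genes rose (background 6.52% of genes by adjusted p), with medians of 1.63 and 1.20. The mean level of the mitosis list was 7.10, 6.71 and 7.0 in the 1-week arrays of CSE 5% and 8.36, 8.38 and 8.45 at 3 weeks, against 7.59, 7.53 and 7.44 and then 9.15, 8.94 and 9.17 in control. CSE 5% lay below control at both weeks. The change of MKI67 differed from that in control by -0.11, with a 95% interval from -0.46 to 0.25, and that of CDK1 by 0.08, with an interval from -0.58 to 0.75. By adjusted p, the CSE 5% change was smaller than the control change in 3 mitosis and 13 replication genes and larger in none, where 2.44% of all genes had the larger and 2.16% the smaller change in CSE 5%. TIMELESS, which protects stalled forks, rose by 0.36 ± 0.09 in CSE 5% and 1.32 ± 0.09 in control, a difference of -0.96 ± 0.13 (adjusted p = 2.38e-05). KPNA2, an importin that carries proteins into the nucleus, rose by 0.48 and 1.10, a difference of -0.63 ± 0.08 (adjusted p = 1.41e-05). MCM5, MCM7 and GINS2, parts of the replicative helicase, had differences of -0.73, -0.72 and -0.93 (adjusted p = 0.0291, 0.000652 and 0.011).

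The promoters of these genes share short sequences that the comparison did not use. The window was the 300 bases around the annotated start, 250 before it and 50 after, from the RefSeq sequences of GRCh38.p14, and such a window was at hand for 14239 of the genes. The motifs were picked after the values were seen, and a match is a description of the letters. TTTGAA, the core of the cell cycle homology region bound by MuvB, was found on either strand in 27 of 39 mitosis promoters (69.2%) and in 11.9% of all promoters. Its looser form TTTNAA, which takes in every TTTGAA, was in 87.2% and 28.4%. The E2F-type motifs TTTGGCGC and TTTCCCGC were in 23.1% and 28.2% of 39 replication promoters and in 0.864% and 2.25% of all. CCAAT, the letters bound by NF-Y, was in 66.7% of mitosis, 56.4% of replication and 36.3% of all promoters, and in still larger shares of the ATF4 (78.6%) and cholesterol (68.0%) lists described below, so it did not set the cell division lists apart. Stretches of 100 bases are shown for 3 mitosis and 3 replication genes to let the motifs be seen in place, on the strand of the gene, 5′ to 3′, with the motif in capitals (in TYMS it reads as the reverse complement of TTTCCCGC).
MKI67, chr10:128126424-128126523, minus strand: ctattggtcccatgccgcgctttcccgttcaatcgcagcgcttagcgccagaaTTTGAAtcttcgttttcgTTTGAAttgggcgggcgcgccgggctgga
PRC1, chr15:90994536-90994635, minus strand: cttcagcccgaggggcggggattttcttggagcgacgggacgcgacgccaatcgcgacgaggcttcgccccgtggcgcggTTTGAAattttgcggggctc
KIF23, chr15:69414244-69414343, plus strand: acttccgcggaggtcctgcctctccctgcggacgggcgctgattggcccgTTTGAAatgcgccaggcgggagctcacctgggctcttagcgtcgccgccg
DTL, chr1:212035648-212035747, plus strand: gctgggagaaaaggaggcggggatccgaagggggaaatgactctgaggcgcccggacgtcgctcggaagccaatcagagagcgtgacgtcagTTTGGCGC
MCM6, chr2:135876484-135876583, minus strand: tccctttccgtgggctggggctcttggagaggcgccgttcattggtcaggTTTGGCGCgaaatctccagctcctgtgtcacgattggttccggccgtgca
TYMS, chr18:657553-657652, plus strand: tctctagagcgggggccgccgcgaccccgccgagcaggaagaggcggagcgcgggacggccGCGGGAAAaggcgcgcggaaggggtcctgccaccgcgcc

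**Figure D2:**
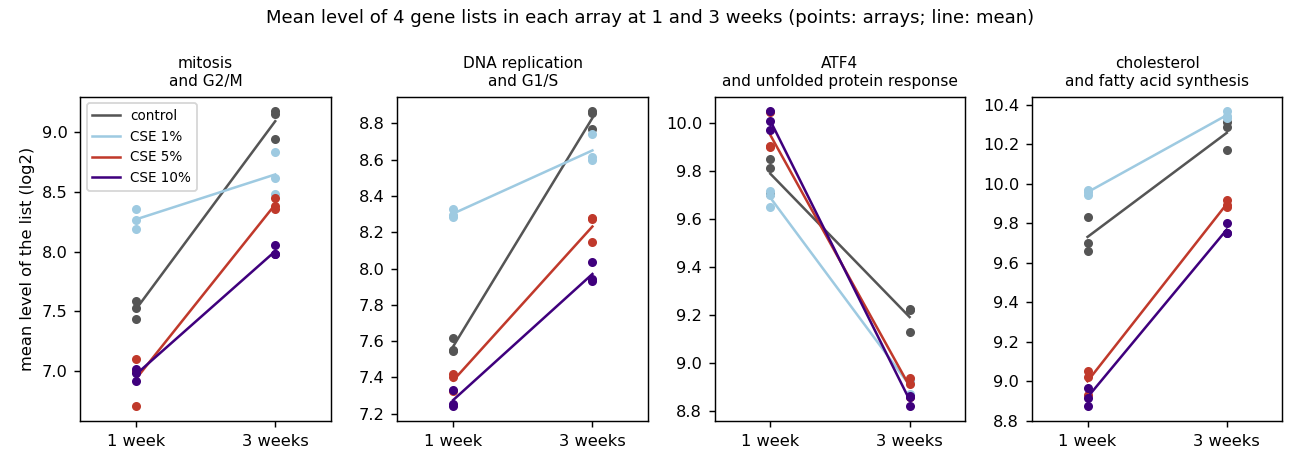
Mean log2 level of 4 gene lists in each array at 1 and 3 weeks, for control and each CSE concentration. Points are arrays and lines join group means. In CSE 5% the mitosis list went from 6.71 to 7.10 up to 8.36 to 8.45, and the ATF4 list from 9.90 to 10.05 down to 8.86 to 8.94, with no overlap between weeks.

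Genes of the amino acid response fell the most. Of 32 measured genes of the ATF4 and unfolded protein response list, 25 fell and none rose (background 9.53% and 9.21%). The median change was -0.91. PHGDH, the first enzyme of serine synthesis, read 11.24, 11.18 and 11.21 at 1 week and 7.0, 7.21 and 6.96 at 3 weeks. Its change of -4.16 ± 0.21 (adjusted p = 2.37e-14) was the largest of all genes, 17.8-fold lower. PSAT1, the next enzyme of that pathway, read 10.96, 10.85 and 11.04 and then 7.86, 8.03 and 8.07, a change of -2.97 ± 0.13 (adjusted p = 1.55e-15). ASNS, which makes asparagine, read 10.51, 10.27 and 10.25 and then 7.95, 7.87 and 8.12, a change of -2.36 ± 0.12. In each of these the weeks were separated by more than 2 log2 units. CHAC1, which breaks down glutathione, and PCK2, the mitochondrial PEP carboxykinase, changed by -2.35 and -2.37, and STC2, a secreted glycoprotein, by -2.11. The mRNA of ATF4 itself read 11.28, 11.31 and 11.29 and then 10.34, 10.22 and 10.36, a change of -0.99 ± 0.07 (adjusted p = 6.86e-11). DDIT3, which encodes the stress factor CHOP, read 9.08, 8.39 and 8.21 and then 7.20, 7.08 and 7.26, a change of -1.38 ± 0.17 (adjusted p = 7.78e-07). SLC7A11, the cystine transporter that both ATF4 and NRF2 control, read 12.39, 12.24 and 12.52 and then 12.80, 12.48 and 12.76 and did not pass (0.30 ± 0.20, adjusted p = 0.34).

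The fall went through the linked routes of serine, folate and tRNA charging. These lists were drawn up after the values were seen and are a description. Of 25 serine, one-carbon and amino acid uptake genes, 18 fell (background 9.53%) and the median change was -0.90. SHMT1, the cytosolic partner of SHMT2, was the 1 that rose, by 0.39, and it was not called without replicate 1 of 1 week or replicate 2 of 3 weeks. ALDH1L2, the mitochondrial formyl-folate dehydrogenase, read 9.31, 8.94 and 9.18 at 1 week and 6.08, 5.89 and 6.26 at 3 weeks, a change of -3.07 ± 0.13 (adjusted p = 1.55e-15). SHMT2, which passes the carbon of serine to folate in mitochondria, read 11.64, 11.51 and 11.43 and then 9.76, 10.19 and 9.83, a change of -1.60 ± 0.12 (adjusted p = 7.18e-11). Of 19 cytosolic aminoacyl-tRNA synthetases, 13 fell and none rose (background 9.53% and 9.21%), and the median was -0.77. They were led by GARS1, which charges glycine, at -1.49 ± 0.08 (adjusted p = 1.21e-13). NUPR1, a small stress-induced nuclear protein, read 8.77, 8.48 and 8.59 and then 6.36, 6.19 and 6.11, a change of -2.40 ± 0.13 (adjusted p = 4.44e-14). EIF4EBP1, a brake on cap-dependent translation that ATF4 also drives, fell by 2.03 ± 0.15.

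The median of the list moved the same way in control, by less. In control 17 of the 32 ATF4 list genes fell (background 5.65%) and 2 rose, with a median of -0.41. By adjusted p of the difference, the fall was larger in CSE 5% than in control for 10 genes and smaller for none. Over all genes that difference was lower for 2.16% and higher for 2.44%. PHGDH fell by 1.99 in control, so the CSE 5% change was lower by 2.16 ± 0.30 (adjusted p = 4.55e-05). NUPR1 changed by -0.38 in control, where it had read 6.51, 6.99 and 6.77 at 1 week, and the difference was -2.01 ± 0.18 (adjusted p = 4.18e-08). ALDH1L2 had a difference of -1.96 (adjusted p = 1.4e-07) and PSAT1 of -1.45 (adjusted p = 1.23e-05). DDIT3 went the other way, with a change of -2.03 in control against -1.38 in CSE 5%, and its difference of 0.65 did not pass (adjusted p = 0.156). For CHAC1 and STC2 the differences of -0.51 and -0.13 did not pass, with 95% intervals from -0.85 to -0.16 and from -0.58 to 0.33. The intervals, unlike the calls, are not adjusted for the number of clusters tested, and that of CHAC1 lay wholly on the negative side. The CHAC1 difference passed with array weights (adjusted p = 0.041) and without replicate 3 of control at 1 week (adjusted p = 0.0494). Of the serine and uptake list, 14 of 25 genes fell more in CSE 5% than in control, and of the synthetases 5 of 19 (background 2.16%). Mean levels of the ATF4 list were 10.05, 9.91 and 9.90 in CSE 5% and 9.70, 9.85 and 9.81 in control at 1 week. At 3 weeks they were 8.86, 8.94 and 8.91 in CSE 5% and 9.22, 9.22 and 9.13 in control, so CSE 5% passed from above control to below it.

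The letters TGATGNAA, the core of the composite C/EBP and ATF element, were in 5 of 28 promoters of the ATF4 list (17.9%) and in 2.54% of all. The longer form TGATGNAAT, which lies within it, was in none of the 28 and in 0.632% of all. CHAC1 and ASNS are shown as genes with a match, in capitals, which in CHAC1 is the reverse complement.
CHAC1, chr15:40953221-40953320, plus strand: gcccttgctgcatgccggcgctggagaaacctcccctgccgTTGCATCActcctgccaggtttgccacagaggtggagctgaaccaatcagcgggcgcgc
ASNS, chr7:97872427-97872526, minus strand: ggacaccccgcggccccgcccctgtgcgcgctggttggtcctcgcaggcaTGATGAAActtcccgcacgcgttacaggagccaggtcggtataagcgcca

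**Figure D3:**
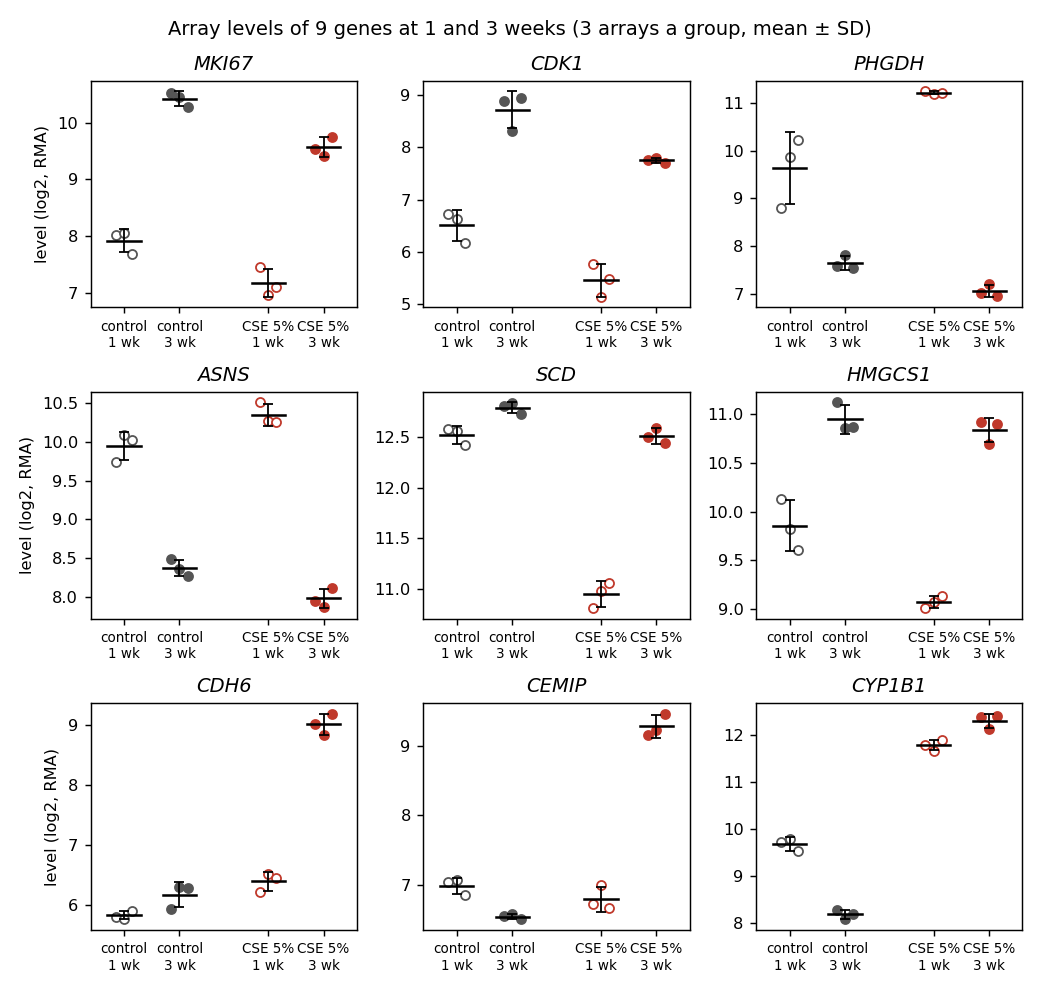
Log2 array levels of 9 genes in control and CSE 5% cells at 1 week (open points) and 3 weeks (filled points), 3 arrays a group with mean and SD. MKI67 and CDK1 rose in both, PHGDH and ASNS fell in both and further in CSE 5%, and CYP1B1 rose in CSE 5% by 0.52 while it fell in control by 1.5.

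Genes of cholesterol and fatty acid synthesis rose. Of 27 measured, 24 rose and none fell (background 9.21% and 9.53%), and the median change was 0.90. HMGCS1, which makes the precursor of mevalonate, read 9.01, 9.07 and 9.14 at 1 week and 10.91, 10.69 and 10.89 at 3 weeks, a change of 1.76 ± 0.13 and 3.38-fold. FADS2, a desaturase of polyunsaturated fatty acids, read 10.09, 10.34 and 10.38 and then 11.93, 11.96 and 11.93, a change of 1.67 ± 0.08 (adjusted p = 1.35e-14). SCD, the stearoyl-CoA desaturase, read 10.81, 10.98 and 11.06 and then 12.51, 12.59 and 12.44, a change of 1.56 ± 0.09 (adjusted p = 4.41e-13). All 3 genes had 3-week arrays well above every 1-week array. INSIG1, the sterol sensor that holds SREBP back, rose by 1.37 ± 0.08, SQLE, squalene epoxidase, by 1.41 ± 0.11, and FADS1, the partner desaturase of FADS2, by 1.01 ± 0.07.

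In control, 19 of the 27 rose (background 6.52%), with a median of 0.50. By adjusted p the rise was larger in CSE 5% for 10 genes and smaller for none (background 2.44% and 2.16%). SCD rose most clearly beyond control, by 1.30 (adjusted p = 2.34e-07), its control change being 0.27 (adjusted p = 0.0564). FADS2 had a difference of 0.83 ± 0.12 (adjusted p = 5.07e-05), and HMGCS1, INSIG1, SQLE and FADS1 of 0.67, 0.52, 0.63 and 0.50. The HMGCS1 difference was not called (adjusted p = 0.0681 to 0.15) without replicate 1 or 2 of control at 1 week, 2 or 3 of control at 3 weeks, 1 or 2 of CSE 5% at 1 week, or 1 or 3 of CSE 5% at 3 weeks. At 1 week the list had a mean level of 8.93, 9.05 and 9.02 in CSE 5% against 9.83, 9.70 and 9.66 in control, and at 3 weeks of 9.88, 9.89 and 9.92 against 10.31, 10.29 and 10.17. The list was therefore lower in CSE 5% at both weeks, and the gap narrowed. The letters CACNCCAC, part of the sterol regulatory element, were in 4 of 25 promoters of the list (16%) and in 5.84% of all. They were also in 2 of 13 promoters of the AhR list (15.4%), so they did not set the cholesterol list apart from it. INSIG1 and SCD are shown with the match in capitals, in both as the reverse complement.
INSIG1, chr7:155297628-155297727, plus strand: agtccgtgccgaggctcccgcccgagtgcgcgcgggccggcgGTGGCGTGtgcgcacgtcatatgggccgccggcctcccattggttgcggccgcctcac
SCD, chr10:100347069-100347168, plus strand: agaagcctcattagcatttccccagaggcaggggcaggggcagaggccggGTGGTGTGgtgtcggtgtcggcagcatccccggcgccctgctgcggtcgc

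Many small structural RNA genes were lower at 3 weeks. Of 192 small nucleolar and Cajal body RNA genes, 84 fell and 8 rose (background 9.53% and 9.21%), with a median of -0.35. These RNAs guide chemical marks on ribosomal and spliceosomal RNA. Only 3 to 5 rose without any single array other than replicate 2 of 3 weeks. Of 30 other small structural RNA genes 21 fell (background 9.53%), with a median of -0.63. These lists too were drawn up after the values were seen. SNORA20 read 11.19, 11.24 and 10.85 at 1 week and 7.74, 9.31 and 8.47 at 3 weeks, a change of -2.59 ± 0.33 (adjusted p = 1.73e-06). SNORA68 read 11.50, 11.74 and 11.50 and then 8.69, 10.79 and 8.85, a change of -2.14 ± 0.36 (adjusted p = 9.76e-05). VTRNA1-1, a vault RNA, read 7.49, 7.61 and 7.59 and then 4.63, 5.79 and 5.19, a change of -2.36 ± 0.31 (adjusted p = 2.77e-06). In all 3 genes replicate 2 of 3 weeks was the highest array of its week, and it still lay below every 1-week array. Without that array 86 small nucleolar and Cajal body RNA genes and 20 other small RNA genes fell, and the counts without any single array of the comparison ran from 60 to 86 and from 14 to 20. In control, 55 of 192 and 11 of 30 fell (background 5.65%). The difference from control passed in 5 of the 192, 1 higher and 4 lower, and in none of the 30. Over all genes the difference was higher for 2.44% and lower for 2.16%. Many of these RNAs lie in introns of other genes and are short, the array reads few probes for each, and near-identical copies can share probes.

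There were 16 genes taken by the test of the difference from control, 8 in each direction by smallest p. CEMIP, which breaks down hyaluronan, read 6.72, 7.0 and 6.67 at 1 week and 9.15, 9.23 and 9.46 at 3 weeks in CSE 5%, a rise of 2.49 ± 0.11. It fell by 0.45 in control, and the difference was 2.93 (adjusted p = 5.46e-13), the largest of all genes. CDH6, a cadherin of kidney and mesenchyme, read 6.22, 6.53 and 6.45 and then 9.03, 8.84 and 9.19, a rise of 2.62 ± 0.13 and 6.16-fold, against 0.34 in control (difference 2.28, adjusted p = 3.58e-09). TSPAN1, a tetraspanin of epithelia, changed by 0.58 and by -1.20 in control (difference 1.79, adjusted p = 3.41e-09). MRAP2, a partner of melanocortin receptors, had a difference of 1.89, AGMO, which cleaves ether lipids, of 1.84, and TPST1, which sulphates tyrosines of secreted proteins, of 1.24. In MRAP2, AGMO and TPST1 the 3 arrays of 3 weeks lay above those of 1 week in CSE 5% and the control change had the opposite sign. In the other direction, S100P, a calcium-binding protein, read 10.93 to 11.14 at 1 week and 9.44 to 9.83 at 3 weeks, a change of -1.45 ± 0.09 against -0.15 in control (difference -1.30, adjusted p = 1.43e-07). KLF4, a factor of epithelial differentiation, changed by -1.47 ± 0.09 against -0.34 in control (difference -1.13, adjusted p = 1.59e-06). NR4A3, a nuclear receptor induced by many stimuli, changed by -0.35 ± 0.11 against 1.02 in control (difference -1.37, adjusted p = 3.64e-06). The fall of NR4A3 in CSE 5% was not called without any of 5 single arrays, all but replicate 3 of 1 week (adjusted p = 0.0536 to 0.113), while its difference from control was.

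**Figure D4:**
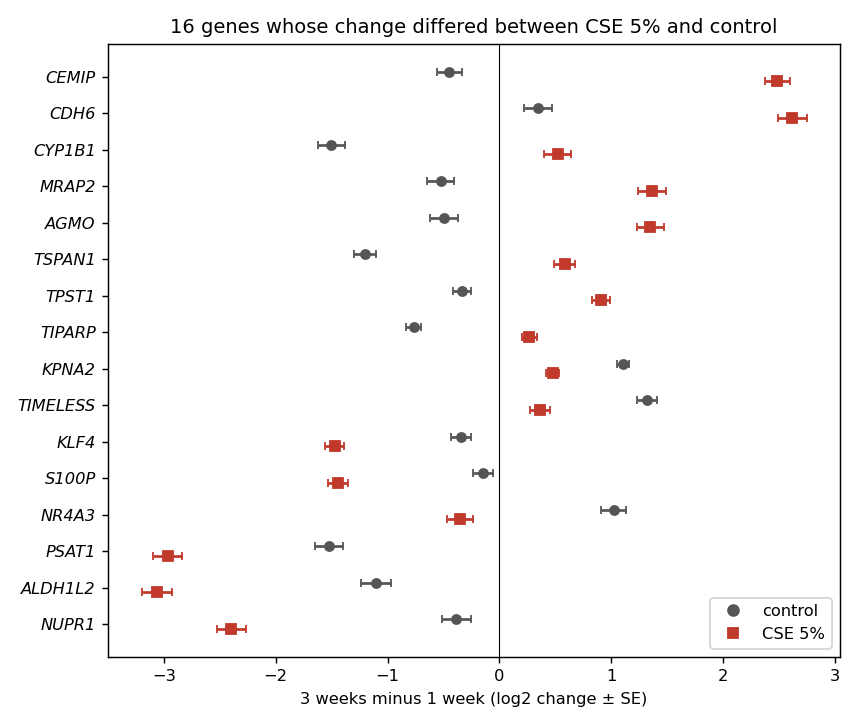
Log2 change from week 1 to week 3 with its SE for the 16 genes with the smallest p of the difference between CSE 5% (squares) and control (circles), 8 in each direction, ordered by that difference. CEMIP is at the top with 2.49 against -0.45, and NUPR1 at the bottom with -2.40 against -0.38.

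The AhR target genes CYP1B1, TIPARP and CYP1A1 rose in CSE 5% and fell or held in control. CYP1B1, an oxidase of aromatic hydrocarbons and oestrogens, read 11.80, 11.67 and 11.89 at 1 week and 12.38, 12.14 and 12.41 at 3 weeks, a rise of 0.52 ± 0.12 (adjusted p = 0.00246). In control it read 9.73, 9.80 and 9.53 and then 8.28, 8.08 and 8.20, and the difference was 2.02 (adjusted p = 1.46e-08). TIPARP, an ADP-ribosylase that feeds back on AhR, read 11.92, 11.83 and 11.84 and then 12.12, 12.13 and 12.15, a rise of 0.27 ± 0.07, against 9.93, 9.87 and 9.96 and then 9.17, 9.08 and 9.22 in control. CSE 5% arrays of both genes lay above all control arrays at either week. CYP1A1, the classical AhR target, was dim, at 6.20, 5.84 and 5.83 and then 6.63, 6.74 and 6.68, a rise of 0.73 ± 0.13 (adjusted p = 0.000146). It differed from the control change by 0.73 (adjusted p = 0.0196), a call lost without replicate 1 of control at 1 week, 2 of control at 3 weeks, or 2 or 3 of CSE 5% at 1 week (adjusted p = 0.0544 to 0.0735). Over 15 measured members of the AhR list 4 rose and 2 fell, against 9.21% and 9.53% of all genes. The other 9 did not pass, and the median was 0.02. The difference from control passed as higher in 3 members and as lower in 1 (background 2.44% and 2.16%). The receptor AHR did not pass at -0.06. STC2, which fell, is also on the ATF4 list.

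Of 33 NRF2 and NADPH genes, 6 fell and 2 rose, against 9.53% and 9.21% of all genes. In control 7 rose and none fell (background 6.52% and 5.65%). The CSE 5% change was lower than the control change for 4 of the 33 and higher for none (background 2.16% and 2.44%). HMOX1, the haem oxygenase, read 9.08, 8.82 and 8.95 and then 8.02, 8.17 and 8.16, a change of -0.84 ± 0.17 (adjusted p = 0.000939), with a difference from control of -0.76 that did not pass (adjusted p = 0.0888). NQO1, a quinone reductase, rose by 0.19 ± 0.05 from a level above 13 (adjusted p = 0.00842). NQO1 and UGDH, the 2 that rose, no longer passed without replicate 2 of 1 week, and for NQO1 the adjusted p was then 0.0528. Of 32 immediate early and ERK feedback genes 13 fell and 2 rose (background 9.53% and 9.21%), and 1 rose without replicate 1 of either week. Among those that fell was DUSP1, a phosphatase of MAP kinases, which went from 10.79, 10.43 and 10.48 to 8.78, 9.19 and 8.99. Its change was -1.58 ± 0.15 (adjusted p = 5.05e-09) and differed from control by -1.23 (adjusted p = 0.000602). GDF15, a secreted stress cytokine, changed by -1.08 in CSE 5% and -0.97 in control.

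Among 23 measured genes taken from those the study names for its arrays, 9 rose, 1 fell and 13 did not pass (background 9.21% higher and 9.53% lower). The study names its Wnt receptor only as Frizzled, and FZD1 to FZD8 were put in for it here. The study chose the other genes on these samples, so their direction is not independent evidence. The study compared cells in CSE with untreated cells, while here week 3 was set against week 1 within CSE 5%. A gene already raised at week 1 need not pass here, so not passing does not go against the study. The 13 that did not pass were VIM, MMP7, MMP9, TGFB1, ITGAV, SMAD2, SMAD3, FZD1, FZD3 and FZD5 to FZD8. For SMAD2 the brighter of its 2 clusters, the one used, changed by 0.06 and the other by 0.57. CCL2, which attracts monocytes, read 9.45, 9.54 and 9.51 at 1 week and 11.02, 11.18 and 11.02 at 3 weeks, a rise of 1.57 ± 0.15 (adjusted p = 1.32e-08). It differed from the control change, 0.60, by 0.96 (adjusted p = 0.00879). MMP2, a gelatinase, read 6.42, 6.58 and 6.46 and then 7.34, 7.58 and 7.80, a rise of 1.09 ± 0.12, with a difference from control of 1.27 (adjusted p = 4.13e-05). ITGB6, the epithelial integrin that activates latent TGF-β, read 6.83, 6.74 and 6.74 and then 7.98, 7.88 and 8.07, a rise of 1.20 ± 0.15, with a difference of 1.04 (adjusted p = 0.00453). In all 3 the weeks did not overlap. The ligand TGFB2 rose by 1.03 ± 0.11, its receptor TGFBR2 by 0.40, fibronectin (FN1) by 0.76, N-cadherin (CDH2) by 0.58, and the Wnt receptors FZD2 and FZD4 by 0.44 and 0.32. Of 44 measured genes of TGF-beta, BMP and activin signalling 10 rose and 7 fell, with a median of 0.02. Over 36 measured mesenchymal genes 9 rose and 4 fell, against 9.21% and 9.53% of all genes, with a median of -0.02. With 1 array left out, 6 to 8 of them rose and 1 to 4 fell. E-cadherin (CDH1) read 11.40, 11.40 and 11.25 and then 11.11, 10.93 and 11.15, a change of -0.28 ± 0.08 (adjusted p = 0.0137). The study, which compared with untreated cells, found no decrease of E-cadherin. KRT7, a keratin of simple epithelia, fell by 0.75 ± 0.11. Of 32 measured genes of epithelial junctions and keratins 6 fell, 1 rose and 25 did not pass, with a median of -0.15. The CDH1 call was lost without replicate 1 or 2 of 1 week or replicate 2 of 3 weeks (adjusted p = 0.0615, 0.0644 and 0.0859). FZD2 was not called without replicate 1 of 1 week or replicate 2 of 3 weeks (adjusted p = 0.0507 and 0.143), the latter lowering its change from 0.44 to 0.27, nor FZD4 without replicate 1 or 3 of either week (0.0578 to 0.0904). Differences from control of 0.58 for TGFB2, 0.48 for TGFBR2 and 0.58 for FN1 passed (adjusted p = 0.0309, 0.0241 and 0.0244), and those of CDH2, CDH1, FZD2 and FZD4 did not. These 3 calls lay near the limit of 0.05, and each was lost on leaving out any 1 of several arrays. In those runs the differences were 0.54 to 0.59 for TGFB2, 0.445 to 0.478 for TGFBR2 and 0.44 to 0.57 for FN1. That of TGFB2 was lost without any of 8 arrays, all but replicate 3 of control at 1 week, 1 of control at 3 weeks, 1 of CSE 5% at 1 week and 2 of CSE 5% at 3 weeks (adjusted p = 0.0546 to 0.0909). That of TGFBR2 was lost without replicate 1 or 2 of control at 1 week, 2 of control at 3 weeks, 1 or 3 of CSE 5% at 1 week, or 1 or 3 of CSE 5% at 3 weeks (0.0507 to 0.0778). That of FN1 was lost without replicate 2 of control at 1 week, 3 of control at 3 weeks, 3 of CSE 5% at 1 week, or 1 or 3 of CSE 5% at 3 weeks (0.0606 to 0.0764).

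Several secreted and immune genes moved apart from control. C3, the central complement protein, read 9.83, 9.87 and 9.74 and then 10.96, 11.04 and 11.03, a rise of 1.20 ± 0.17, and differed from control by 1.26 (adjusted p = 0.00204). The proteases C1R and C1S of the classical pathway rose by 0.70 and 0.60, with differences of 0.94 and 0.85, and factor B of the alternative pathway (CFB) by 0.40, with a difference of 1.04. CD55, which protects cells from complement, read 11.63, 11.49 and 11.53 and then 10.74, 10.61 and 10.55, a change of -0.91 ± 0.10 (difference -0.73, adjusted p = 0.00176). Of all 32 complement and acute-phase genes 6 rose and 2 fell, against 9.21% and 9.53% of all genes, and 24 did not pass. The death ligand TNFSF10 read 6.61, 6.69 and 7.0 and then 7.48, 7.59 and 7.47 in CSE 5%, a rise of 0.75 ± 0.17, while in control it fell by 1.17 (difference 1.92, adjusted p = 1.68e-05). TNFSF15, a cytokine of the same family, rose by 0.66 and fell by 0.89 in control (difference 1.55, adjusted p = 5.72e-07). Both are on the list of interleukins and colony-stimulating factors. Of its 32 measured genes 4 rose and 2 fell (background 9.21% and 9.53%), 26 did not pass, and the median was -0.03. With 1 array left out, 2 to 3 of the 32 rose. Of 37 interferon-stimulated genes 9 rose (background 9.21%), including SAMD9L by 1.31, PARP9 by 0.77, HERC6 by 0.74 and the RNA sensor OAS3 by 0.84. Another 2 fell (background 9.53%), and at most 1 of them without any single array. SAMD9L, PARP9 and HERC6 differed from control by 1.65, 0.98 and 0.71, whereas OAS3 rose by 1.06 in control too and its difference of -0.22 did not pass (adjusted p = 0.587). Of 19 chemokines 5 rose (background 9.21%), and 3 without replicate 1 or 2 of 1 week or replicate 2 or 3 of 3 weeks. CXCL1, which attracts neutrophils, rose by 0.59 ± 0.11, with a difference of 0.69 (adjusted p = 0.008).

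The other concentrations were measured over the same span on arrays of their own. In 1% CSE 46 genes (0.25%) were higher and 148 (0.804%) lower, and in 10% CSE 245 (1.33%) were higher and 193 (1.05%) lower. Of the 225 genes higher in CSE 5%, 135 (60%) were called in 10% CSE, which was 55.1% of its calls, and 18 (8.0%) in 1% CSE, which was 39.1% of its calls. By adjusted p alone 216 of the 225 (96.0%) moved the same way in 10% CSE and 115 (51.1%) in 1% CSE. Of the 108 lower genes, 90 (83.3%, and 46.6% of the other calls) were called in 10% and 70 (64.8%, and 47.3%) in 1% CSE. The change in CSE 5% differed from that in 1% in 129 higher (0.7%) and 18 lower genes (0.0977%), and from that in 10% in 31 higher (0.168%) and 4 lower genes (0.0217%). By adjusted p 12 of 46 mitosis genes rose in 1% CSE (background 9.43%) and 38 in 10% CSE (13.3%), with medians of 0.37 and 1.07. The mitosis rise was larger in CSE 5% than in 1% CSE for 31 genes and smaller for none (background 2.5%). At 1 week the mitosis list read 8.19 to 8.35 in 1% CSE, 7.44 to 7.59 in control, 6.71 to 7.10 in CSE 5% and 6.92 to 7.01 in 10% CSE, so the list started highest in 1% CSE. The median of the ATF4 list was below 0 in every group, at -0.41 in control, -0.66 in 1%, -0.91 in 5% and -1.14 in 10% CSE, and the medians of the cholesterol list were 0.50, 0.36, 0.90 and 0.89. In 10% CSE 23 of the 32 ATF4 list genes fell (background 11.6%). TGFB2 passed in CSE 5% and in control but not at 1% or 10%, where it changed by 0.10 and 0.07.

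**Figure D5:**
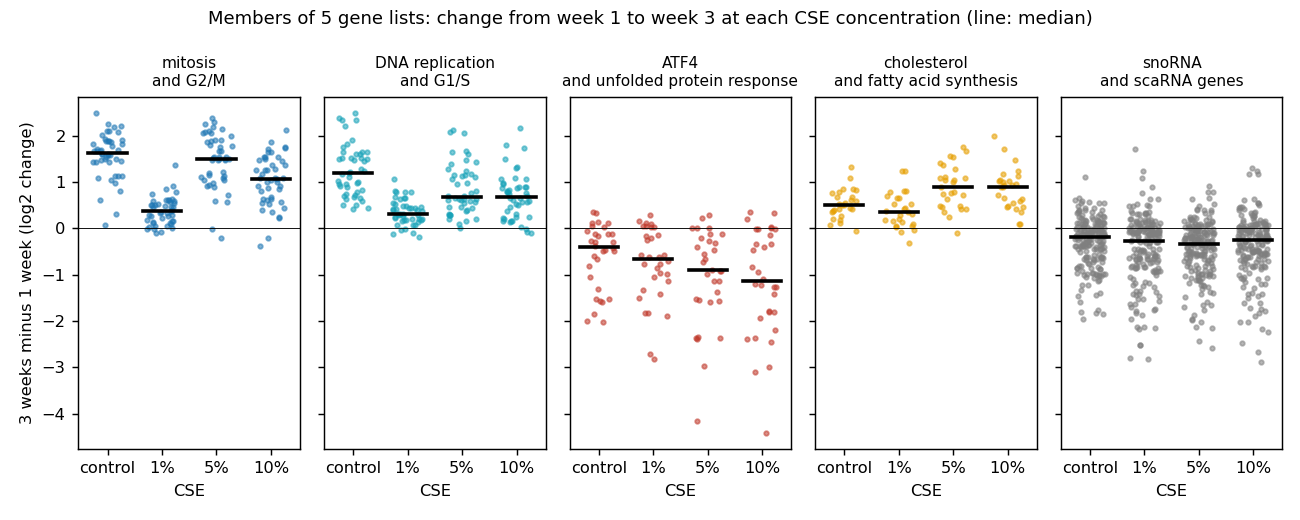
Log2 change from week 1 to week 3 of the members of 5 gene lists (points, 1 a gene) in control and in 1%, 5% and 10% CSE, with the median as a line. The mitosis medians were 1.63, 0.37, 1.5 and 1.07, and the ATF4 medians -0.41, -0.66, -0.91 and -1.14, in that order.

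Values at 5 weeks in CSE 5% stand beside these, on arrays that share the 3-week group with the comparison above. From week 3 to week 5, 16 genes were higher (0.0869%) and 1 lower (0.00543%). The mitosis list went from 8.36, 8.38 and 8.45 to 8.78, 8.64 and 8.72, and 7 of its 46 genes rose by adjusted p (background 0.668%). The ATF4 list read 8.89, 8.84 and 8.85 at 5 weeks and the cholesterol list 9.89, 9.85 and 9.89, and no member of either passed. SNORA20 rose by 1.88 ± 0.33 between 3 and 5 weeks (adjusted p = 0.0034), and 11 of 192 small nucleolar and Cajal body RNA genes and 5 of 30 other small RNA genes rose. CCL2 rose again, by 0.85 ± 0.15 (adjusted p = 0.00368).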

How the data were processed

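RNA of A549 cells was hybridised to Affymetrix Human Gene 1.0 ST arrays, 36 in all, 3 for each of 12 groups. The authors background-corrected, quantile-normalized and summarised the probe signals by RMA and deposited log2 values per transcript cluster, which ran from 2.29 to 14.5 and were used as deposited. RMA gives every array a like distribution, so a shift shared by most genes would not be seen. Their processing notes list RMA, limma and R version 2.11.0. For the build behind the annotation, no source used here names one, so it is not given. The number of arrays limits the precision, and no read depth applies. All 36 columns belonged to a sample, and 0 columns were unused.

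Of 33297 transcript clusters, 19460 had 1 gene symbol, 1754 several and 12083 none in the platform annotation given with the data. This left 18417 genes, 769 of them with several clusters, of which the brightest was used. In limma 3.58.1, 1 linear model estimated 12 group means from the 36 arrays together (R 4.3.3, 24 residual degrees of freedom, prior proportion 0.01), with the Benjamini-Hochberg adjustment running over all 33297 clusters. The procedure was tested on simulated data. Gene counts used an absolute log2 change over 1 with B over 0, and single genes and members of lists an adjusted p under 0.05. The difference between CSE 5% and another group was tested as the difference of both changes. Errors are standard errors of the fit. The labels call the 3 arrays of a group biological replicates, and the labels of the 5-week controls conflict on the week, so those arrays entered only the estimate of the spread. Alternatives were other normalizations, filters, thresholds, sets of arrays and variance models, a replicate block, and leaving out each array. In 1% and 10% CSE each same-numbered pair of arrays deviated together more than every pair of unlike number, which was not so in control or CSE 5%. All 3 same-numbered pairs correlated over 0.1 in 1% CSE only.

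The comparison, the 46 lists and the rules were chosen with earlier results of these data known, and 5 of the lists (serine and one-carbon genes, tRNA synthetases, both small RNA classes, histones) after the values were seen. Genes were named by a rule that took up to 15 largest changes per direction whose arrays did not overlap between weeks and up to 5 members per list with the smallest p. It also took up to 8 in each direction that differed from control at the lowest p, and the genes the study names, with FZD1 to FZD8 for Frizzled. ATF4, KRT8, KRT18, SFTPB, NKX2-1, KIF23, CDC25B, BUB3, MCM5, MCM6, MCM7, E2F1, GINS2, DDIT3, SLC7A11, SHMT1, SHMT2, GARS1, SQLE, AHR, UGDH and CFB fell outside it and were picked after their values were seen. Promoters were searched for 10 motifs on both strands, all given in the report but GCGTG and TTGCGTG, which were in 44.7% and 1.44% of all promoters and in 69.2% and 7.69% of 13 promoters of the AhR list. Python 3.11.15, pandas 2.3.3, numpy 2.4.6 and matplotlib 3.10.9 were used.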

Additional observations from a re-analysis of the deposited data

Results flagged for a closer look

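These results differed between groups by the test of the difference of the changes from week 1 to week 3. Against control, 94 genes moved up and 18 down in CSE 5% relative to control, against 1% CSE 129 and 18, and against 10% CSE 31 and 4. All values below are the log2 change in CSE 5% minus that in control, by limma at an adjusted p under 0.05. MCM5, MCM7, GINS2, SHMT2, GARS1, SQLE and CFB were picked after their values were seen and were not run under alternatives.

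Genes of the amino acid response, stress and one-carbon lists had PHGDH at -2.16, NUPR1 at -2.01, ALDH1L2 at -1.96, PSAT1 at -1.45, SHMT2 at -1.13, EIF4EBP1 at -1.03, ASNS at -0.79, PCK2 at -0.77 and GARS1 at -0.76. Replication and transport genes with a smaller rise in CSE 5% were TIMELESS at -0.96, GINS2 at -0.93, MCM5 at -0.73, MCM7 at -0.72 and KPNA2 at -0.63. Signalling and epithelial genes with a lower change than in control were NR4A3 at -1.37, S100P at -1.30, DUSP1 at -1.23, KLF4 at -1.13, CD55 at -0.73 and KRT7 at -0.54. The KRT7 difference was not called (adjusted p = 0.0643 to 0.161) without any of 8 single arrays, those other than replicate 3 of either group at 1 week, 3 of control at 3 weeks and 2 of CSE 5% at 3 weeks.

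Lipid synthesis genes rose more than in control, with SCD at 1.30, FADS2 at 0.83, HMGCS1 at 0.67, SQLE at 0.63, INSIG1 at 0.52 and FADS1 at 0.50. Genes that rose in CSE 5% and fell or changed little in control were CEMIP at 2.93, CDH6 at 2.28, MRAP2 at 1.89, AGMO at 1.84, TSPAN1 at 1.79 and TPST1 at 1.24. AhR targets were CYP1B1 at 2.02, TIPARP at 1.03 and CYP1A1 at 0.73. Secreted, immune and matrix genes were TNFSF10 at 1.92, SAMD9L at 1.65, TNFSF15 at 1.55, MMP2 at 1.27, C3 at 1.26, CFB at 1.04, ITGB6 at 1.04, PARP9 at 0.98, CCL2 at 0.96, C1R at 0.94, C1S at 0.85, HERC6 at 0.71, CXCL1 at 0.69, TGFB2 at 0.58, FN1 at 0.58 and TGFBR2 at 0.48.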

How the results depend on the processing

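Of 316 counts of called genes under alternatives, 298 stayed within 1.5 times the reported count. Of the 66 genes of the text run under alternatives none changed direction, while the histone list went from 8 higher and 2 lower to 3 and 4 without replicate 2 of CSE 5% at 3 weeks. The CSE 5% counts were 196 to 245 higher and 91 to 121 lower under other settings, and 190 to 240 and 88 to 124 with 1 array left out. The counts that moved follow. The 4 genes lower against 10% CSE became 2 with B over 3, 2 with adjusted p in place of B, 1 with cyclic loess, 1 with quantile normalization, 8 with array weights and 0 to 7 with 1 array left out. The 46 genes higher in 1% CSE became 81 with each array centred on housekeeping genes and 38 to 72 with 1 array left out, and the 18 genes lower against 1% CSE became 28 with that centring. The same centring raised every difference between CSE 5% and control by 0.11. Deviations of same-numbered arrays correlated at -0.04, 0.10 and -0.10 in CSE 5% and 0.30, -0.08 and -0.03 in control. In 10% CSE they correlated at 0.16, 0.09 and 0.11, and in 1% CSE at 0.40, 0.16 and 0.19. Only 1% CSE had every such pair over 0.1. Pairs of unlike number reached 0.16 in CSE 5%, 0.29 in control, 0.0003 in 10% CSE and 0.14 in 1% CSE. In 10% and 1% CSE each same-numbered pair thus lay above every unlike pair, and in CSE 5% and control they did not. The replicate block, fixed or random, joined arrays of the same number across all 12 groups. It therefore cannot show what pairing within a concentration would do. With the replicate block the counts, higher then lower, were 224 and 108 in CSE 5%, 210 and 70 in control, 46 and 148 in 1% and 245 and 193 in 10% CSE. For the difference of CSE 5% from control they were 94 and 17, from 1% CSE 121 and 18, and from 10% CSE 31 and 3, all within 1.5 times those without it. The random block correlation was -0.03. With the replicate block the differences of HMGCS1 and KRT7 were no longer called, and no other call of a named gene changed. Of 66 genes of the text named by the rule, 5 lost the CSE 5% call under at least 1 alternative (CDH1, FZD2, FZD4, NR4A3 and NQO1). Of 44 with a called difference from control, 9 lost it (HMGCS1, KRT7, TGFB2, TGFBR2, FN1, CYP1A1, EIF4EBP1, INSIG1 and PCK2), and CDH2, CHAC1, HMOX1 and SNORA68 gained one, CDH2 under 7 settings. Fitted to the arrays of the comparison alone, the differences of EIF4EBP1, INSIG1 and PCK2 had adjusted p of 0.0565, 0.0882 and 0.116. The causes were not tested. No depth applies to arrays, and their number, 3 a group, limits what could be called.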
